A study of Mus musculus with 12 samples.

Results

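Voltage-gated calcium channels open when a cell depolarises and let calcium in. Each channel is built around 1 pore-forming alpha-1 subunit, which sets the voltage range, the kinetics and the drug sensitivity of the current. Beta and alpha-2-delta subunits bind the pore and govern how much of it reaches the membrane. Alpha-1 subunits fall into 3 classes: the presynaptic P/Q-, N- and R-type channels (Cacna1a, Cacna1b, Cacna1e), the T-type channels that open near rest (Cacna1g, Cacna1h, Cacna1i) and the L-type channels that couple activity to gene transcription (Cacna1c, Cacna1d). Purkinje cells, the output neurons of the cerebellar cortex, carry mostly P-type current from Cacna1a, and mutations or CAG expansions of human CACNA1A cause ataxia.

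The mRNAs of these 8 genes were followed in RNA sequencing of the mouse cerebellum. The 8 were taken by gene name from the 55401 gene identifiers of the count tables, and all 8 were among the 19378 genes that had enough reads to be tested. The study comprised 12 libraries, 1 per mouse, in 3 groups of 4. WT DMSO holds wild-type mice given dimethyl sulfoxide (DMSO) alone (animals 413, 425, 426 and 431). Het DMSO holds Atxn1154Q/2Q knock-in mice given DMSO alone (409, 411, 420 and 429), a model of spinocerebellar ataxia type 1 with a long CAG run, coding for glutamines, in 1 Atxn1 allele. Het Hit 2 holds the same genotype given the compound Hit 2 at 25 mg/ml in DMSO (410, 421, 422 and 430). All mice were injected into the abdomen daily for 5 days, rested for 2 days and were injected for 5 more days, from 18 to 20 weeks of age, so DMSO was common to every group. The expanded allele sits in the Atxn1 locus itself, so it is not limited to 1 cell type by a transgene promoter. The tissue was whole cerebellum, where fewer cells of a type and less RNA per cell cannot be told apart. No wild-type mice given Hit 2 were used here. Below, the knock-in comparison sets Het DMSO against WT DMSO, the compound comparison sets Het Hit 2 against Het DMSO, and the treated-to-WT comparison sets Het Hit 2 against WT DMSO.

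The series concerns compounds that are selective for CAG repeats, so the longest CAG run in the coding sequence of each of the 8 genes is shown first, with 12 bases on either side. The runs were read from GENCODE M21 transcripts (GRCm38), from the longest coding transcript, and capitals mark the CAG units.
Cacna1a: ctcagaagacaaCAGCAGattgaacgtgag
Cacna1b: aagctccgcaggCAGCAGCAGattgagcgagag
Cacna1e: tgtgacccaatcCAGCAGgaggctggggga
Cacna1g: gagattgtgggcCAGCAGggaggtggcctg
Cacna1h: cgagatcctgtgCAGCAGccccatgaaggg
Cacna1i: gttgctgtggacCAGCAGccggtgacaaac
Cacna1c: cagcggaagcggCAGCAGtatgggaaaccc
Cacna1d: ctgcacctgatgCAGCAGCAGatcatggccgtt
Cacna1b (codons 378 to 380) and Cacna1d (codons 1973 to 1975) held 3 units in a row, and the other 6 genes held 2. Runs of at least 3 units occurred in 5.43% of 22500 coding genes and runs of at least 2 units in 40.4%. The Cacna1a run lies at codons 385 and 386, and no longer run was found in the coding sequence of this mouse transcript.

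Reads assigned to genes ranged from 15855751 to 45265719 per library. Levels are given as CPM, reads of a gene per 1000000 gene reads of the library, after TMM scaling, which equalises the bulk of genes between libraries. In the Het DMSO group, libraries 409 and 411 stood apart from the other 10, so results that rest on them are given with and without them. Library 411 held 599 CPM of the summed Purkinje cell markers (10 genes) against 3159 to 7290 CPM elsewhere, and 391 CPM of the granule cell markers (10 genes) against at least 4527 CPM elsewhere. Its 10 markers of brain outside the cerebellum summed to 247 CPM, against 20.4 to 78.3 CPM elsewhere. Library 409 had the highest share of multimapping reads (7.01%, next 5.91%), and its markers lay on both sides of the other libraries. Of the Purkinje cell markers, Pcp4 was the lowest of the 12 libraries there (1.97 CPM, next 13.9) and Skor2 the highest (15.7 CPM, next 15.1). Of the granule cell markers, Fat2 was the highest (4022 CPM, next 2559) and Neurod1 (135 CPM) below every WT library. Library 411 lacks most of the expected signal of its labelled tissue. The other 10 libraries were not alike either. Of these, 410 (Het Hit 2) had the lowest Purkinje cell (3159 CPM) and granule cell (4527 CPM) sums. Its oligodendrocyte markers summed to 5554 CPM, the highest of these 10. Library 410 stayed in the fits without 409 and 411. Both WT DMSO libraries 425 and 426 were female by Xist and the other 10 libraries were male. The counts pool both Atxn1 alleles and do not check the genotype labels.

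Cacna1a was the most abundant alpha-1 mRNA of the cerebellum and Cacna1h the least. Per kilobase of exon, the scale on which genes are compared here, Cacna1a stood at 124 ± 10.3 CPM per kb (SD, n = 4) in WT DMSO. It was followed by Cacna1g (51.3 ± 6.13 CPM per kb, SD, n = 4), Cacna1i (29.4 ± 5.27), Cacna1e (22.0 ± 1.72) and Cacna1b (21.1 ± 0.433). The L-type genes Cacna1c (16.1 ± 1.63) and Cacna1d (15.5 ± 0.743) came next and Cacna1h last (0.781 ± 0.316 CPM per kb). Cacna1a was first in 11 of 12 libraries, and in library 411 Cacna1b was first. Cacna1a exceeded Cacna1g, Cacna1g exceeded Cacna1i, Cacna1e exceeded Cacna1c and Cacna1d exceeded Cacna1h in 12 of 12 libraries. Neighbours that changed places were Cacna1i and Cacna1b (Cacna1i higher in 9 of 12), Cacna1b and Cacna1e (Cacna1b higher in 5 of 12) and Cacna1c and Cacna1d (Cacna1c higher in 8 of 12). The ranges of Cacna1b and Cacna1e, and of Cacna1c and Cacna1d, overlapped within every group. The order between Cacna1a and Cacna1h depended on the length used. With the longest transcript in place of all exons, Cacna1e (37.3 CPM per kb in WT DMSO) exceeded Cacna1i (29.7) in 12 of 12 libraries. Cacna1c (26.0) exceeded Cacna1b (21.5) in 9 of 12, and Cacna1a was first and Cacna1h last in 12 of 12. Cacna1g (62.0) was second in 9 of 12 libraries on this scale, Cacna1e in 2 and Cacna1b in 1.

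**Figure D1:**
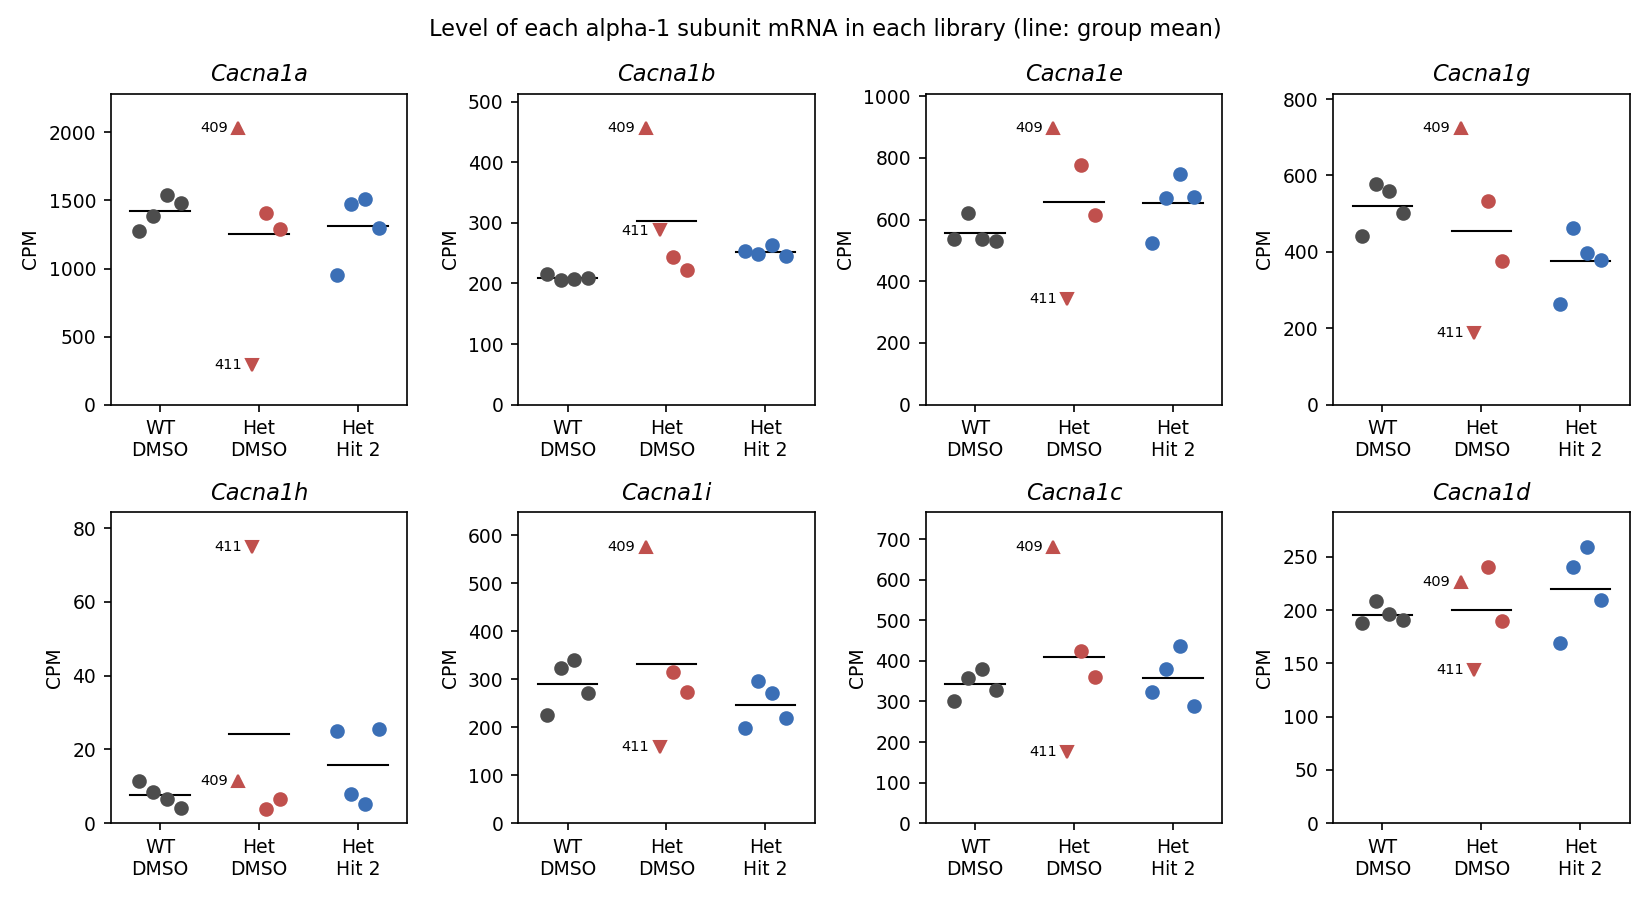
Level of each alpha-1 subunit mRNA in CPM (vertical axis, starting at 0) in each of the 12 libraries, by group (horizontal axis). Each point is 1 library, the line is the group mean, and triangles mark libraries 409 and 411. All 8 Het points of Cacna1b lie above the 4 WT points, and in the other 7 panels the groups overlap.

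None of the 8 genes passed the threshold of an adjusted p of 0.05 (edgeR's quasi-likelihood test, Benjamini-Hochberg adjustment over 19378 genes) in any of the 3 comparisons. The background was nearly as empty: 0.00516% of all genes passed in the knock-in comparison, 0% in the compound comparison and 0.00516% in the treated-to-WT comparison. At an unadjusted p under 0.05, edgeR marked Cacna1b alone in the knock-in comparison (background 7.11%), and 0 of 8 in the other 2 comparisons (backgrounds 1.55% and 1.71%). DESeq2 also passed 0 of 8 genes at an adjusted p of 0.05 in each comparison (backgrounds 0.222%, 0% and 0.124%), and at an unadjusted p under 0.05 it marked 1 (Cacna1b), 0 and 0 genes (backgrounds 9.29%, 2.29% and 1.95%). limma-voom with a quality weight per library passed 1 of 8, Cacna1b, in the treated-to-WT comparison (background 1.14%) and 0 in the knock-in and compound comparisons (backgrounds 0.506% and 0%). Its counts at an unadjusted p under 0.05 were 2, 0 and 4 of 8 (backgrounds 9.4%, 5.04% and 12.9%). Without 409 and 411, edgeR passed 0 of 8 genes in each comparison (backgrounds 0.0895%, 0% and 0.448%), and at an unadjusted p under 0.05 it marked Cacna1b and Cacna1e, Cacna1h, and Cacna1b and Cacna1g, in the same order (backgrounds 5.83%, 3.72% and 9.5%). Cacna1b was no longer marked in the knock-in comparison, leaving 0 of 8, with only the 2 groups compared in the fit (background 3.75%), with sex as a covariate (2.93%) and among male libraries (2%). With only the 2 groups in the fit, Cacna1b and Cacna1g were marked in the treated-to-WT comparison (background 9.31%). The 2 comparisons with WT DMSO share the WT libraries, and the Het DMSO libraries enter the first and the second comparison.

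**Figure D2:**
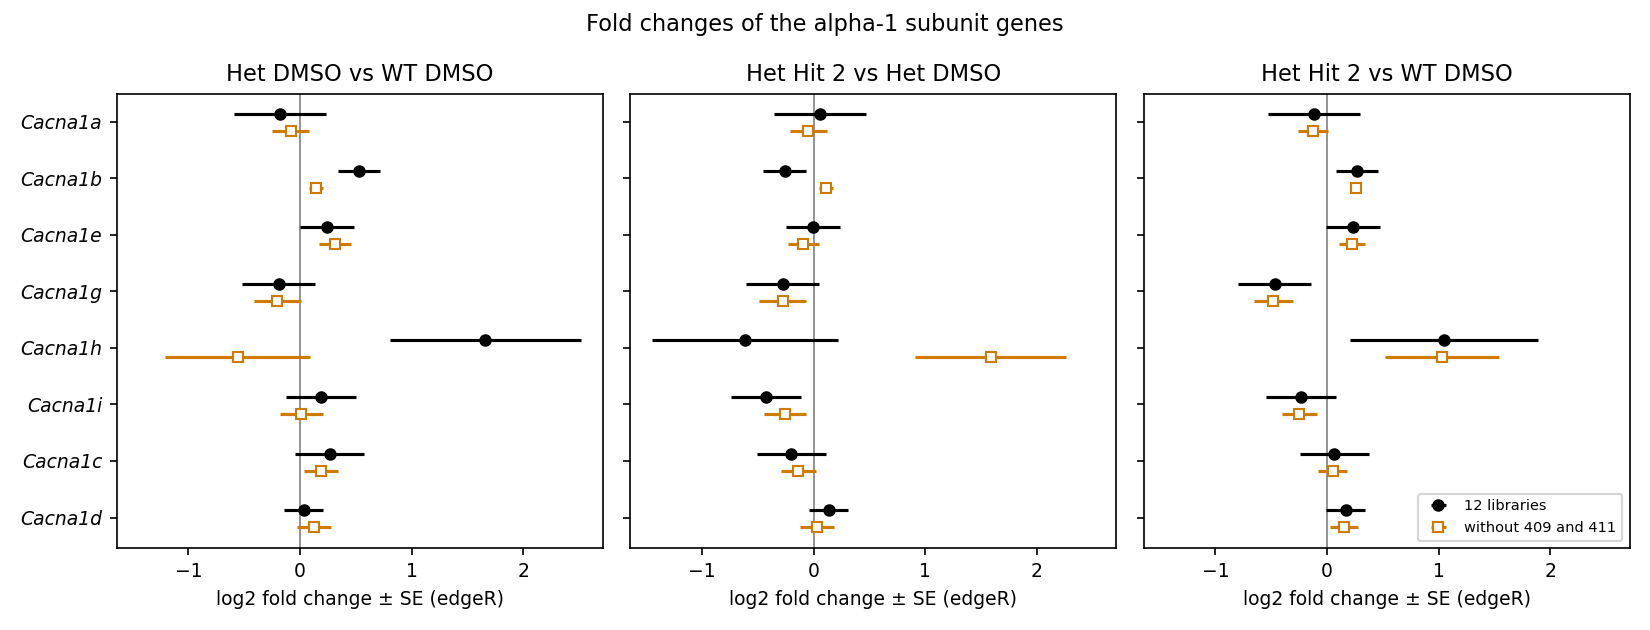
Log2 fold change ± SE from edgeR (horizontal axis) of each alpha-1 gene (vertical axis) in the 3 comparisons, with all 12 libraries (black circles) and without libraries 409 and 411 (open squares). The widest error bars belong to Cacna1h, whose values in the knock-in comparison change sign between the 2 fits (1.66 and -0.56).

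Cacna1b encodes the N-type pore, which carries calcium for transmitter release at many synapses. Its WT DMSO libraries lay within a narrow band, at 216 (413), 206 (425), 207 (426) and 210 (431) CPM. The Het DMSO libraries stood at 456 (409), 288 (411), 244 (420) and 222 (429) CPM, and the Het Hit 2 libraries at 254 (410), 248 (421), 263 (422) and 245 (430) CPM. Every one of the 8 Het libraries was above every WT library. The same was true of 0.619% of the 19378 genes tested. The mean was 210 ± 4.31 CPM in WT DMSO, 303 ± 106 CPM in Het DMSO and 253 ± 7.87 CPM in Het Hit 2 (SD, n = 4 each).

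The Cacna1b log2 fold change in the knock-in comparison was 0.53 (edgeR SE 0.19, adjusted p 0.616, two-sided exact permutation p 0.0286, higher in 4 of 4 libraries). The permutation value is the smallest that the 70 assignments of 4 and 4 libraries allow. Libraries 409 and 411 carried most of this size: without them the log2 fold change was 0.14 (edgeR SE 0.06, adjusted p 0.815). Groups without overlap in this direction occurred for 1.94% of genes. In the treated-to-WT comparison it was 0.27 (edgeR SE 0.19, adjusted p 1.000, two-sided exact permutation p 0.0286), with 2.9% of genes not overlapping in this direction. Without 409 and 411, whose spread enters the shared fit, this value was 0.26 (edgeR SE 0.05, adjusted p 0.0648), and limma-voom with quality weights gave 0.26 (adjusted p 0.0433). Between Het Hit 2 and Het DMSO the log2 difference was -0.26 (edgeR SE 0.19, adjusted p 0.898) with all libraries and 0.11 (edgeR SE 0.06, adjusted p 0.983) without 409 and 411. Without 409 alone it was 0.0089 and without 411 alone -0.32, so its direction rested on 409.

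The promoter window of Cacna1b is shown because Cacna1b was the member whose Het libraries all lay on 1 side of WT, and because ataxin-1, the protein of Atxn1, binds the repressor Capicua. The sequence is RefSeq's (GRCm38.p6, chr2:24763203-24763402, minus strand, the 200 bases farthest upstream of a window of 250 bases before the annotated start), with GC boxes in capitals.
Cacna1b promoter: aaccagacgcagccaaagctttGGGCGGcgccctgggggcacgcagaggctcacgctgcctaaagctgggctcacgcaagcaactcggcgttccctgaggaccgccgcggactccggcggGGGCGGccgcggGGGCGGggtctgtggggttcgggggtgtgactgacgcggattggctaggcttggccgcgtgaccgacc
On both strands the 250 bases held 3 GC boxes (GGGCGG), a motif present in 32.7% of 32851 RefSeq windows of that length. None of the 4 Capicua octamers searched (TGAATGAA, TCAATGAA, TGAATGGA and TCAATGGA) occurred in the window, and 3.19% of all windows held at least 1 of them. The window is GC-rich, with 72% G or C and 29 CpG dinucleotides. Neither trait was particular to Cacna1b. The windows of Cacna1c, Cacna1d, Cacna1e and Cacna1i held none of the 4 octamers either. Among them 1 window of Cacna1c (82.8% G or C) and 1 of Cacna1d (86.4%) were richer in G and C, and the others, at 39.6% to 62.4%, were less so.

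Cacna1a encodes the P/Q-type pore. It stood at 1274 (413), 1383 (425), 1543 (426) and 1480 (431) CPM in WT DMSO. In Het DMSO it stood at 2032 (409), 294 (411), 1410 (420) and 1287 (429) CPM, and in Het Hit 2 at 954 (410), 1476 (421), 1509 (422) and 1297 (430) CPM. Library 411 was at 20.7% of the WT mean and 409 at 143%, while 420 and 429 lay inside the WT range. The log2 fold change in the knock-in comparison was -0.18 (edgeR SE 0.41, adjusted p 0.873, exact permutation p 0.714) and -0.08 without 409 and 411. Het Hit 2 differed from Het DMSO by 0.06 (edgeR SE 0.41, adjusted p 0.975) and from WT DMSO by -0.12 (edgeR SE 0.41, adjusted p 1.000). Each of these differences was smaller than the spread between libraries.

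Cacna1e encodes the R-type pore and is expressed in granule cells. WT DMSO libraries stood at 536 (413), 621 (425), 537 (426) and 530 (431) CPM. Het DMSO libraries were at 897 (409), 342 (411), 776 (420) and 615 (429) CPM, and Het Hit 2 libraries at 524 (410), 671 (421), 747 (422) and 675 (430) CPM. Except for 411, 429 and 410, every Het library was above the highest WT library. The log2 fold change was 0.24 (edgeR SE 0.24, adjusted p 0.696) in the knock-in comparison and 0.31 (edgeR SE 0.14, adjusted p 0.850) without 409 and 411. Against WT DMSO, Het Hit 2 stood at 0.23 (edgeR SE 0.24, adjusted p 1.000, exact permutation p 0.143), and against Het DMSO at -0.01 (edgeR SE 0.24, adjusted p 0.994), or -0.09 without 409 and 411.

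Among the T-type genes, Cacna1g, a pore of Purkinje cells and cerebellar nuclei, was the most abundant. It stood at 441 (413), 578 (425), 560 (426) and 501 (431) CPM in WT DMSO. The Het DMSO values were 724 (409), 187 (411), 534 (420) and 376 (429) CPM, and the Het Hit 2 values 264 (410), 464 (421), 397 (422) and 380 (430) CPM. In the Hit 2 group 3 of 4 libraries lay below the lowest WT library, and 421 lay above it. In the treated-to-WT comparison Cacna1g had a log2 fold change of -0.47 (edgeR SE 0.33, adjusted p 1.000, exact permutation p 0.0571). This was -0.48 (edgeR SE 0.17, adjusted p 0.374) without 409 and 411, and -0.33 among male libraries. In the knock-in comparison it was -0.19 (edgeR SE 0.33, adjusted p 0.819), or -0.048 among male libraries, and in the compound comparison -0.28 (edgeR SE 0.33, adjusted p 0.898).

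Cacna1i, a T-type pore with slow gating, stood at 227 (413), 323 (425), 341 (426) and 270 (431) CPM in WT DMSO. It stood at 577 (409), 159 (411), 315 (420) and 274 (429) CPM in Het DMSO and at 197 (410), 297 (421), 272 (422) and 220 (430) CPM in Het Hit 2. Both WT females, 425 and 426, were above both WT males. Cacna1i had a log2 fold change of 0.19 (edgeR SE 0.31, adjusted p 0.813) in the knock-in comparison, 0.01 without 409 and 411 and 0.42 among male libraries. It was -0.43 (edgeR SE 0.31, adjusted p 0.898) in the compound comparison, -0.26 without 409 and 411, and -0.23 (edgeR SE 0.31, adjusted p 1.000) in the treated-to-WT comparison, the latter -0.01 among male libraries.

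Cacna1h, the third T-type pore, is known mainly from other brain regions and sensory neurons. It rested on 61 to 1486 reads per library and stood at 11.4 (413), 8.53 (425), 6.54 (426) and 4.07 (431) CPM in WT DMSO. In Het DMSO it was at 11.4 (409), 75.0 (411), 3.80 (420) and 6.55 (429) CPM, and in Het Hit 2 at 25.0 (410), 7.91 (421), 5.17 (422) and 25.4 (430) CPM. Libraries 411, 410 and 430 were high and the other 9 lay between 3.80 and 11.4 CPM. The 95% Poisson interval of 411 was 71.2 to 78.9 CPM and that of the lowest library, 420, 2.90 to 4.88 CPM, both covering counting error only. In the knock-in comparison the Cacna1h log2 fold change was 1.66 (edgeR SE 0.85, adjusted p 0.616) and -0.56 (edgeR SE 0.65, adjusted p 1.000) without 409 and 411. In the compound comparison it went from -0.61 (edgeR SE 0.83, adjusted p 0.898) to 1.59 (edgeR SE 0.68, adjusted p 0.983). Without library 411 alone these values were -0.034 and 1.07, so both directions rested on it. The treated-to-WT comparison gave 1.05 (edgeR SE 0.84, adjusted p 1.000), and 0.33 by limma-voom with quality weights.

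The L-type gene Cacna1c stood at 302 (413), 359 (425), 380 (426) and 328 (431) CPM in WT DMSO. Its Het DMSO values were 682 (409), 176 (411), 424 (420) and 361 (429) CPM, and its Het Hit 2 values 323 (410), 380 (421), 437 (422) and 290 (430) CPM. Libraries 409 and 411 bounded the whole range and the groups overlapped. The log2 fold changes were 0.26 (edgeR SE 0.31, adjusted p 0.734) in the knock-in comparison, -0.20 (edgeR SE 0.31, adjusted p 0.898) in the compound comparison and 0.06 (edgeR SE 0.31, adjusted p 1.000) in the treated-to-WT comparison, the last 0.18 among male libraries.

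Cacna1d, the L-type pore that opens at less depolarised potentials and serves pacemaking, had its lowest value in library 411. It stood at 188 (413), 209 (425), 196 (426) and 190 (431) CPM in WT DMSO, at 226 (409), 144 (411), 241 (420) and 190 (429) CPM in Het DMSO and at 169 (410), 240 (421), 260 (422) and 210 (430) CPM in Het Hit 2. Its 3 log2 fold changes were 0.03 (SE 0.17), 0.14 (SE 0.17) and 0.17 (SE 0.17), with edgeR adjusted p of 0.949, 0.898 and 1.000. Each of these was within 1 SE of 0. Without 409 and 411 they were 0.13, 0.03 and 0.15.

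Over the 8 genes, 6 had a log2 fold change above 0 in the knock-in comparison (median 0.22), beside 55.8% of all genes tested (median 0.05). In the compound comparison 2 of 8 were above 0 (median -0.23), beside 44.3% of all genes (median -0.04). In the treated-to-WT comparison 5 of 8 were above 0 (median 0.12), beside 55.7% of all genes (median 0.02). Without 409 and 411 the medians of the 8 were 0.07, -0.07 and 0.10. The first 2 comparisons share the Het DMSO libraries on opposite sides.

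The make-up of the alpha-1 pool was then compared as the share of each gene in the summed reads per kilobase of all 8, a measure within a library that does not depend on library scaling. Cacna1a made 44.3 ± 1.96% of the pool in WT DMSO, 36.2 ± 11.1% in Het DMSO and 43.2 ± 1.94% in Het Hit 2 (SD, n = 4 each). Its shares by library were 44.4, 41.7, 44.9 and 46.4% in WT DMSO (413, 425, 426, 431), 40.4, 19.8, 40.8 and 43.9% in Het DMSO (409, 411, 420, 429) and 40.3, 43.9, 44.6 and 44.1% in Het Hit 2 (410, 421, 422, 430). Library 411 was the lowest, 409 and 420 lay just below the WT range and 429 lay within it. The difference of Het DMSO from WT DMSO was -8.13 percentage points (two-sided exact permutation p 0.0571) and -2.02 points (p 0.333) without 409 and 411. Het Hit 2 differed from Het DMSO by 7.02 points (exact permutation p 0.171), or 0.910 points without 409 and 411, and from WT DMSO by -1.11 points (exact permutation p 0.429). In 411 Cacna1b made 22.2% of the pool, above Cacna1a with exon lengths but not with the longest transcript.

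**Figure D3:**
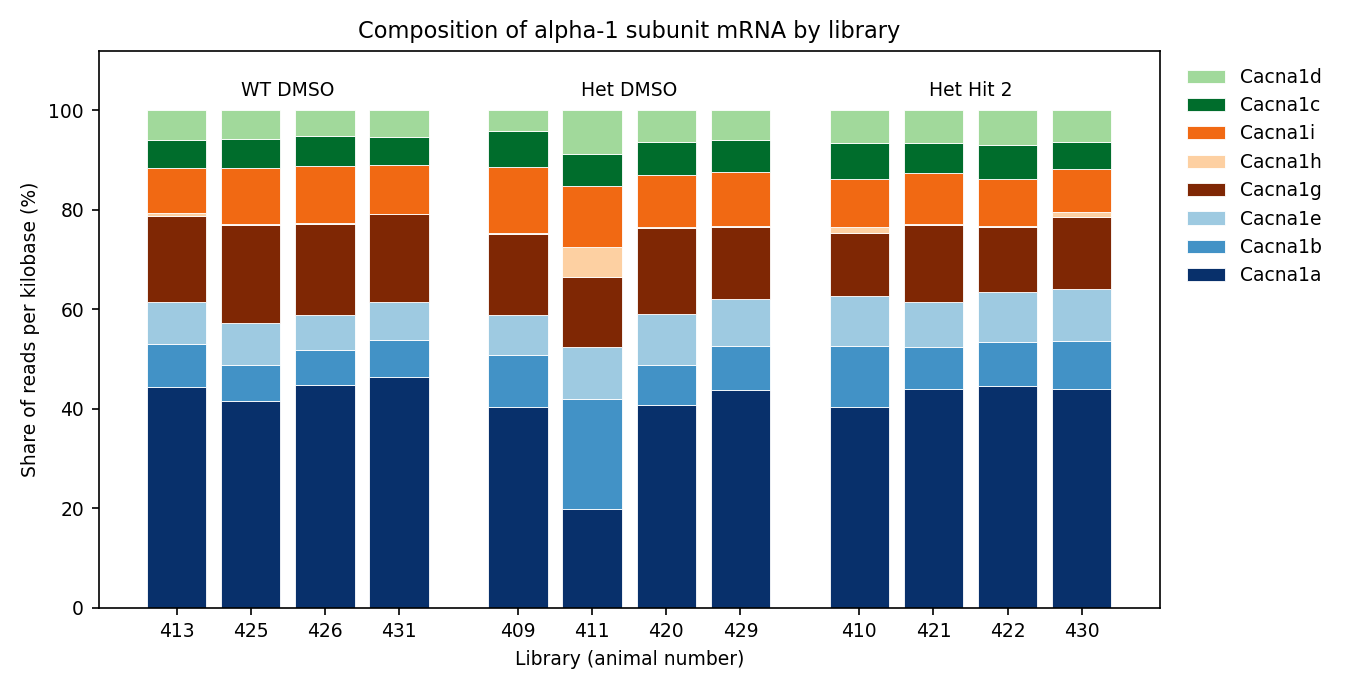
Share of each alpha-1 gene in the summed reads per kilobase of the 8 genes (vertical axis, percent) in each library (horizontal axis, animal number), with blue for P/Q-, N- and R-type, brown and orange for T-type and green for L-type genes. Cacna1a takes 40.3% to 46.4% in 11 libraries and 19.8% in library 411.

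Of the 30 share comparisons made (8 genes, the T-type trio and the L-type pair, in 3 comparisons), 7 reached an exact permutation p of 0.0286, unadjusted and the smallest possible. After Benjamini-Hochberg adjustment over the 30 comparisons the smallest value was 0.122. In the treated-to-WT comparison, 5 of 10 items did not overlap. The share of Cacna1g was 14.0 ± 1.33% against 18.2 ± 1.02%, and that of the T-type trio 24.1 ± 1.43% against 28.9 ± 2.01% (SD, n = 4), both lower in 4 of 4 libraries. The shares of Cacna1e (9.85 ± 0.574% against 7.88 ± 0.701%), Cacna1d (6.58 ± 0.237% against 5.54 ± 0.331%) and the L-type pair (13.0 ± 1.04% against 11.3 ± 0.317%) were higher in 4 of 4 libraries. The L-type pair, added after the values were seen, no longer reached this p with raw counts (0.114), with the longest transcript as length (0.0571) or without any 1 of the 4 WT libraries (0.0571 each). The T-type trio lost it without 410, 422, 425 or 426, and the Cacna1e share without 426 or 431 (exact permutation p 0.0571 each). Among male libraries the Cacna1g share differed by -3.53 points and the T-type trio by -3.17 points (-4.85 with all libraries), in a design of 2 against 4 that cannot go below 0.0667.

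Cacna1c was the gene whose share did not overlap between Het DMSO and WT DMSO, at 6.72 ± 0.400% against 5.74 ± 0.185% (SD, n = 4, exact permutation p 0.0286). Its 0.982 points became 0.870 points without 409 and 411, with 2 of 2 libraries still above WT (exact permutation p 0.0667, the smallest possible). The share of Cacna1i was 9.46 ± 0.653% in Het Hit 2 against 11.8 ± 1.30% in Het DMSO (exact permutation p 0.0286), a difference of -2.29 points. Without 409 and 411 it was -1.22 points (exact permutation p 0.133, smallest possible 0.0667), and without 410, 421, 422 or 430 the exact permutation p was 0.0571 to 0.0857. The share of Cacna1g in Het DMSO was 15.6 ± 1.54%, between those of the other 2 groups, and differed from WT DMSO by -2.69 points (exact permutation p 0.0571). Shares sum to 100%, so a gene's share also moves with the levels of the other 7.

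Markers of cell types moved with several of these genes. A list's score in a library is the mean over its genes of the log2 CPM difference from each gene's 12-library median. Over the 10 libraries other than 409 and 411, Cacna1g followed the Purkinje cell score (Pearson r 0.86, Spearman rho 0.82). Cacna1a did so less closely by rank (r 0.83, rho 0.66), as it did the granule cell score (r 0.83, rho 0.54), and library 410 was the lowest point of both. More closely, Cacna1a ran against the scores of oligodendrocyte precursors (r -0.97, rho -0.95), microglia (r -0.94, rho -0.92) and oligodendrocytes (r -0.85, rho -0.81). Cacna1b ran the other way against the Purkinje cell score (r -0.63, rho -0.70) and against the astroglia score (r -0.81, rho -0.95). The Purkinje cell score was 0.28 to 0.38 in WT DMSO, -3.70 to -0.03 in Het DMSO and -0.82 to 0.12 in Het Hit 2, so that it too separated all 8 Het libraries from WT. The astroglia score did so as well, narrowly, at -0.0058 to 0.289 in WT DMSO, -1.275 to -0.022 in Het DMSO and -0.29 to -0.059 in Het Hit 2. The summed level of the Purkinje cell list was 6965 to 7290 CPM in WT DMSO, 599 to 6122 CPM in Het DMSO and 3159 to 6153 CPM in Het Hit 2, and none of its 10 markers was at 0 in any library. All 10 Purkinje cell markers were tested genes. Library 410, the lowest Hit 2 library for Cacna1a and Cacna1g, had the lowest Purkinje cell (-0.82) and granule cell (-0.51) scores of its group. It also had the highest oligodendrocyte (1.27), oligodendrocyte precursor (0.70) and microglia (0.77) scores of its group. The part of these markers in the values of Cacna1a, Cacna1b and Cacna1g was not tested.

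Cacna1h followed the score of brain outside the cerebellum (r 0.92 and rho 0.79 over 10 libraries, with 8 of its 10 markers passing the filter on low counts). Cacna1h also ran against the granule cell score (r -0.85, rho -0.64). Other members ran against the score of brain outside the cerebellum, among them Cacna1a (r -0.80, rho -0.70), Cacna1c (r -0.80, rho -0.82) and Cacna1i (r -0.77, rho -0.47). The 3 libraries with high Cacna1h also had the 3 highest scores of this list, at 3.67 (411), 2.27 (410) and 1.96 (430). Among the 10 markers, 5 (Gata3, Slc6a3, Pou4f1, Tcf7l2 and Pax7) had these 3 libraries as their 3 highest and the other 5 did not. The summed level was 39.4 to 59.6 CPM in WT DMSO, 20.4 to 247 CPM in Het DMSO and 22.0 to 78.3 CPM in Het Hit 2. Gata3, a transcription factor of brainstem and midbrain neurons, stood at 31.1 CPM in 411, 9.03 in 410 and 3.38 in 430 and at most 1.32 CPM elsewhere, and 4 of the 10 markers were at 0 in at least 1 library. Slc6a3, the dopamine transporter, stood at 36.2 CPM in 411, 1.10 in 410 and 0.282 in 430 and at most 0.157 CPM elsewhere. Otx2, a transcription factor of forebrain and midbrain, did not follow this order, at 17.4 (411), 14.2 (410) and 12.9 (430) CPM against 5.82 to 23.5 CPM elsewhere, nor did Neurod6, at 1.36 to 2.86 CPM against 1.18 to 3.81 CPM. The part of such tissue in the Cacna1h values was not tested. These correlations are descriptions without a test, and their points share groups and tissue make-up.

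**Figure D4:**
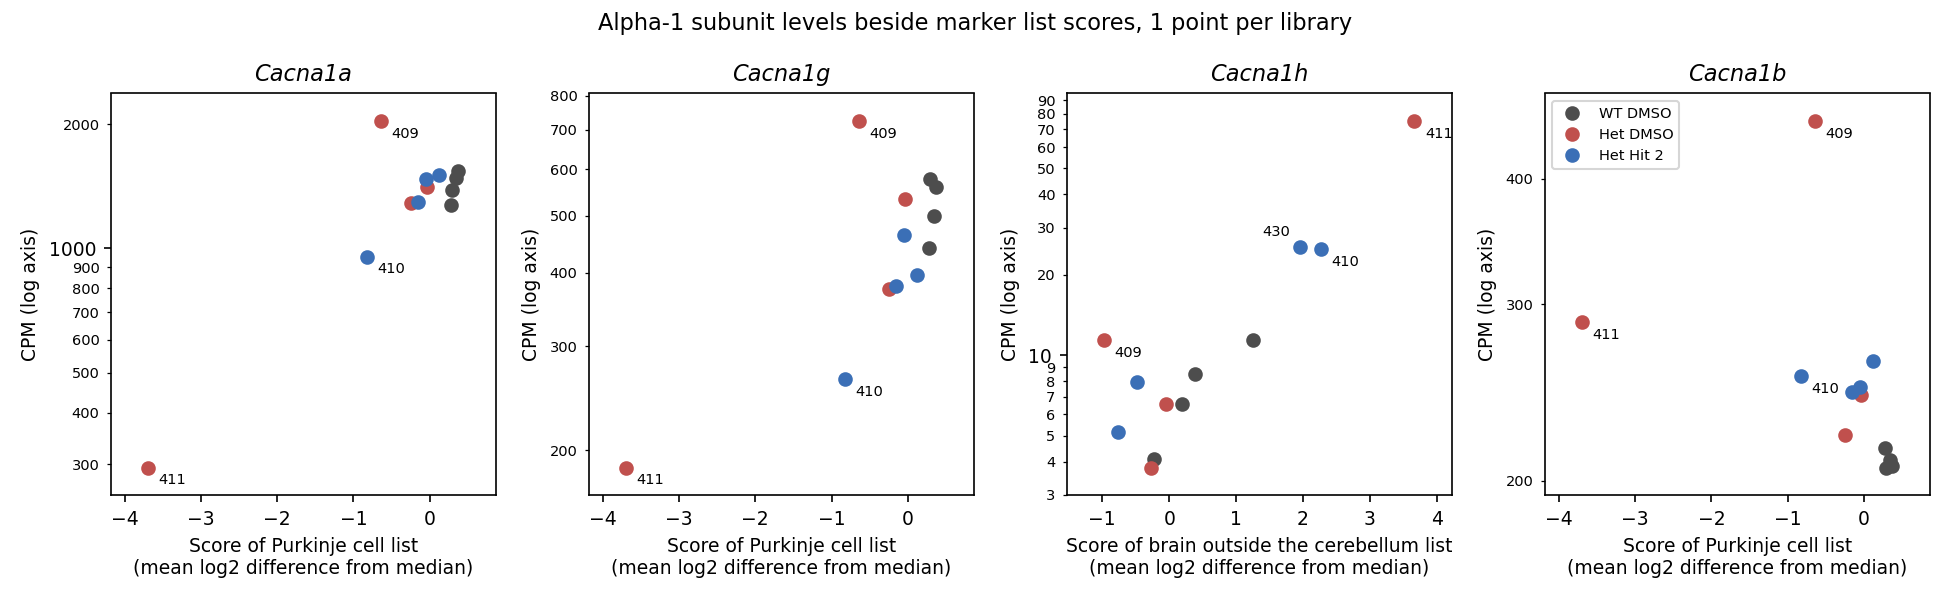
CPM of Cacna1a, Cacna1g, Cacna1h and Cacna1b (vertical axes, log scale) against a marker list score (horizontal axes, mean log2 difference from the median), 1 point per library coloured by group, with some animal numbers beside their points. In the Cacna1h panel 411, 410 and 430 lie at the upper right, and in the Cacna1b panel the 4 WT libraries lie at the lower right.

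Partner genes of the channel were read from 6 lists holding 39 genes, of which 35 were tested. In edgeR 0 of the 35 passed an adjusted p of 0.05 in any comparison (backgrounds as above). At an unadjusted p under 0.05, 2 were higher and 2 lower in the knock-in comparison (background 7.11% in both directions together), 0 and 0 in the compound comparison (1.55%), and 1 higher and 1 lower in the treated-to-WT comparison (1.71%). Median log2 fold changes over the 35 were 0.08, -0.06 and -0.04, beside 0.05, -0.04 and 0.02 over all genes. Groups did not overlap for 4 of the 35 in the knock-in comparison (Cacng2, Calm2, Stac and Cacna1s, all lower, background 2.45% in this direction), for 0 in the compound comparison (background 1.03% in either direction), and for 4 in the treated-to-WT comparison (Cacng8 higher, background 2.9%, and Cacna2d2, Cacnb2 and Stac lower, background 3.42%). The lists of beta (4 genes), alpha-2-delta (4 genes) and active zone (9 genes) partners had 0 genes at an unadjusted p under 0.05 in each comparison, and with these backgrounds lists this short are too small to read anything from a count of 0.

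The most abundant auxiliary subunits per length in WT DMSO were Cacnb4 among the beta subunits (median 44.3 CPM per kb), the subunit mutated in lethargic mice, and Cacna2d2 among the alpha-2-delta subunits (32.7 CPM per kb), mutated in ducky mice. Among gamma subunits and AMPA receptor partners (TARPs) Cacng7 (62.7 CPM per kb) and Cacng2 (28.9 CPM per kb), the stargazin gene, led. Cacna2d2 was at 233 ± 18.3 CPM in Het Hit 2 against 262 ± 10.4 CPM in WT DMSO (SD, n = 4), lower in 4 of 4 libraries, with a log2 fold change of -0.17 (edgeR adjusted p 1.000). The other alpha-1 genes, Cacna1s of skeletal muscle and Cacna1f of the retina, were near the floor, with 2 to 45 and 1 to 15 reads per library.

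The partner genes with the smallest p were Stac, an adaptor that slows L-type inactivation, and Cacng8, a TARP. Stac stood at 11.6 (413), 14.6 (425), 14.2 (426) and 10.1 (431) CPM in WT DMSO, at 7.78 (409), 4.95 (411), 8.90 (420) and 6.59 (429) CPM in Het DMSO and at 3.71 (410), 5.64 (421), 9.80 (422) and 5.63 (430) CPM in Het Hit 2. All 8 Het libraries lay below all 4 WT libraries, as was true of 1.18% of all genes tested. Both WT females, 425 and 426, were above both WT males. The log2 fold change was -0.84 (edgeR SE 0.28, adjusted p 0.616) in Het DMSO and -1.02 (edgeR SE 0.28, adjusted p 1.000) in Het Hit 2, both against WT DMSO. limma-voom with quality weights gave -1.04 (adjusted p 0.0232) for the latter.

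Cacng8 stood at 14.6 (413), 10.6 (425), 11.9 (426) and 9.13 (431) CPM in WT DMSO. The Het DMSO values were 22.7 (409), 34.5 (411), 15.1 (420) and 13.7 (429) CPM and the Het Hit 2 values 21.3 (410), 17.3 (421), 16.4 (422) and 19.8 (430) CPM. Only 429 lay within the WT range. The log2 fold change against WT DMSO was 0.89 (edgeR SE 0.27, adjusted p 0.616) in Het DMSO, 0.30 without 409 and 411, and 0.69 (edgeR SE 0.27, adjusted p 1.000) in Het Hit 2, where limma-voom with quality weights gave 0.63 (adjusted p 0.0305, background 1.14% of all genes).

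The other named partners in the knock-in comparison were Calm3, a calmodulin gene (0.47, edgeR adjusted p 0.616, and -0.01 without 409 and 411), and Cacng2 (-0.27, edgeR adjusted p 0.616, and -0.15 without 409 and 411). In the compound comparison they were Calm3 (-0.35), Rims2 of the active zone scaffold (0.38) and Cbarp, whose protein binds beta subunits (-0.57), each with an edgeR adjusted p of 0.898. All 3 of these changed sign without 409 and 411. In the treated-to-WT comparison the remaining one was Cacng4 (0.33, edgeR adjusted p 1.000).

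The genes whose pattern was most like each member were ranked by Pearson r of log2 CPM over the 10 libraries other than 409 and 411, among 12442 genes with a mean of at least 5 CPM. For Cacna1a they were Tubgcp6 (r 0.98), Cbfa2t3 (0.98) and Il16 (0.98), and for Cacna1b they included Xkr4 (0.96) and Lrrc4c (0.95). Cacna1e had Coro7 (0.95), Prdm11 (0.95) and Rab12 (0.92), and Cacna1d had Polr3a (0.95), Rab12 (0.94) and Atg2a (0.94). Rab12 stood in both lists, and Cacna1d and Cacna1e themselves had r 0.89. Cacna1g had Plxnd1 (0.98), Adamts10 (0.98) and Bmp1 (0.97), and Cacna1i had Dlg1 (0.97), Pacsin3 (0.96) and Cux1 (0.96). Cacna1h had Tmem268 (0.97), Rab36 (0.97) and Cpne6 (0.97), and Cacna1c had Gapvd1 (0.97), Gnb5 (0.96) and Map3k1 (0.96). With 409 and 411 included, r of Cacna1a with Cbfa2t3 was 1.00, while r of Cacna1i with Dlg1 was -0.11 and of Cacna1b with Lrrc4c -0.38. The points of these correlations share groups and tissue make-up.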

How the data were processed

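Per the labels' protocols, 500 ng of RNA per sample, depleted of ribosomal RNA, went into directional libraries with 13 amplification cycles, sequenced as pairs of 100 bases. The authors deposited, for each library, a table of raw read counts by gene. The submitters' processing notes name STAR 2.7.10a, FastQC 0.11.9 and the build GRCm39 (mm39). The annotation release is not given in the sources used here. The opposite-strand column was used, and the other strand held 5.21% to 6.47% of gene reads. Reads unassigned to a gene (44.7% to 54.6%), multimapping (4.08% to 7.01%), unmapped (3.70% to 6.53%) and ambiguous (0.761% to 1.33%) stayed out of library sizes and tests. Symbols matched 55141 of 55401 identifiers. Exon lengths (union of exons) and coding sequences came from GENCODE M21 (GRCm38), and because that build differs from that of the counts, coordinates are given for the RefSeq promoter window alone.

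Genes were kept by filterByExpr, scaled with TMM factors and fitted with edgeR 4.0.16 (R 4.3.3) over all 12 libraries, with 1 coefficient per group. Tests were two-sided, with Benjamini-Hochberg adjustment over all genes tested. SEs come from the quasi-likelihood F statistic. Single values and shares were compared by exact permutation of log2 CPM or share (scipy 1.17.1), with 70 assignments of 8 libraries and a smallest p of 0.0286. Scripts were tested on simulated data. Labels give each library its own animal number, and n counts these libraries. The members, gene lists and tests were chosen with earlier results of these data known. The partner genes named are the 4 with the smallest p per comparison and at least 1 CPM in the higher group, and the genes given for likeness are the 3 with the highest r, less 1 gene in each of these selections that is not reported here. Alternatives were DESeq2 1.42.0, limma-voom 3.58.1 with library quality weights, RLE factors, no filter, unstranded counts, a sex covariate, only the groups compared, other lengths for shares, leaving out 409 and 411 and leaving out each library. The fit of male libraries and the order of levels by longest transcript were added after the data were seen.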

Additional observations from a re-analysis of the deposited data

Results flagged for a closer look

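A library was set aside when its gap to the nearest other library of its group of 4 exceeded Dixon's 95% critical share of the group's range. Of 54 groups of values checked (levels and shares of the 8 genes and the summed shares, in 3 groups), 7 met this, and chance gives about 2.7. Library 411 of Het DMSO accounts for 4 of them. Its Cacna1h level was 75.0 CPM with the next library at 11.4 CPM, its Cacna1h share of the pool was 5.90% with the next at 0.264%, its Cacna1a share was 19.8% with the next at 40.4%, and its Cacna1b share was 22.2% with the next at 10.4%. Library 425 of WT DMSO, a female, had 621 CPM of Cacna1e with the next library at 537 CPM. In Het Hit 2 the Cacna1a share of library 410 was 40.3% with the next at 43.9%, and the Cacna1d share of library 422 was 6.94% with the next at 6.47%.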

How the results depend on the processing

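No paired analysis was possible because animal numbers do not recur between groups. The count of alpha-1 genes called was 0 in each comparison under DESeq2, RLE factors, no filter on low counts, unstranded counts, the sex covariate, only the groups compared, the male libraries, leaving out 409 and 411, and leaving out any 1 library. The exception was limma-voom with quality weights, which called 1 gene (Cacna1b) for Het Hit 2 against WT DMSO. Of the fold changes of the 8 genes under all alternatives, 473 kept direction and call, 30 changed direction and 1 passed the threshold. The cause of each change was not tested.

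Without 409 and 411, log2 fold changes that changed sign for Het Hit 2 against Het DMSO were Cacna1a (-0.046), Cacna1b (0.11), Cacna1h (1.59), Calm3 (0.12), Rims2 (-0.015) and Cbarp (0.44), and for Het DMSO against WT DMSO Cacna1h (-0.56) and Calm3 (-0.0085). With quality weights those for Het Hit 2 against Het DMSO were Cacna1b (0.091), Cacna1h (0.73), Calm3 (0.035) and Cbarp (0.082), and for Het DMSO against WT DMSO Cacna1h (-0.40) and Cacna1i (-0.031). With only the groups compared Cacna1e gave 0.015 for Het Hit 2 against Het DMSO.

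Shares changed sign without 409 and 411 for Cacna1h in Het DMSO against WT DMSO (-0.0891 points), and in Het Hit 2 against Het DMSO for Cacna1b (1.43 points) and Cacna1h (0.480 points). With exon lengths and all libraries, 2 summed shares lay so near 0 that their sign had little meaning. The T-type share of Het DMSO against WT DMSO was -0.00103 points there. It was 0.171 points with the longest transcript and 1.67 points among males. The L-type share of Het Hit 2 against Het DMSO was 0.0421 points there. It was -0.336 points with raw counts and -0.341 points with the longest transcript.

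Leaving out 1 library gave these ranges where a sign changed. Het DMSO against WT DMSO: Cacna1a -0.51 to 0.17, Cacna1c -0.10 to 0.54, Cacna1d -0.069 to 0.18, Cacna1g -0.51 to 0.091, Cacna1h -0.034 to 2.01 and Cacna1i -0.22 to 0.45 were log2 fold changes. In shares Cacna1d went from -0.137 to 1.42, Cacna1h from -0.0659 to 1.86 and the T-type trio from -1.17 to 1.15 points. Het Hit 2 against Het DMSO: Cacna1a -0.30 to 0.39, Cacna1b -0.38 to 0.0089, Cacna1c -0.49 to 0.16, Cacna1d -0.024 to 0.23, Cacna1e -0.25 to 0.18, Cacna1g -0.57 to 0.038, Cacna1h -0.96 to 1.07 and Cbarp -0.82 to 0.12 were log2 fold changes. In shares Cacna1b went from -3.96 to 0.756, Cacna1c from -0.612 to 0.0748, Cacna1d from -0.384 to 1.17, Cacna1e from -0.165 to 0.618, Cacna1h from -1.47 to 0.457 and the L-type pair from -0.490 to 0.759 points. Cacna1c for Het Hit 2 against WT DMSO ranged from -0.049 to 0.14 on the log2 scale. The Cacna1a share of Het DMSO against WT DMSO ranged from -10.7 to -2.66 points and reached an exact permutation p of 0.0286 without library 429. Other shares that reached this p under an alternative were, for Het DMSO against WT DMSO, Cacna1b (without 420), Cacna1e (without 409), Cacna1g (raw counts, or without 420) and the L-type pair (raw counts, longest transcript, or without 409). For Het Hit 2 they were Cacna1d (without 411) and the T-type trio (without 429) against Het DMSO, and Cacna1b (without 421) and Cacna1c (without 430) against WT DMSO. Depth limits Cacna1h most, at 61 reads in library 420.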

Other observations

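Ratios of reads per kilobase within a library give the balance of related pores without reference to library size. Cacna1b to Cacna1a, the N-type to the P/Q-type pore, was 0.154 to 0.194 in WT DMSO, 0.198 to 1.12 in Het DMSO and 0.193 to 0.306 in Het Hit 2. Library 411 held the value of 1.12, the next Het DMSO library was 409 at 0.258, and of the 8 Het libraries 421 alone, at 0.193, overlapped with WT. Cacna1i to Cacna1g, both T-type, was 0.528 to 0.626 in WT DMSO, 0.607 to 0.875 in Het DMSO and 0.596 to 0.769 in Het Hit 2. Cacna1c to Cacna1d, both L-type, was 0.957 to 1.15 in WT DMSO and 0.823 to 1.14 in Het Hit 2. Libraries 409 (1.79) and 411 (0.729) held the highest and the lowest Cacna1c to Cacna1d ratio of the 12. These ratios were chosen after the values were seen and were not tested.

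Among the 8 genes, the pairs that ran most closely together over the 10 libraries other than 409 and 411 were Cacna1d with Cacna1e (Pearson r 0.89 of log2 CPM), Cacna1g with Cacna1i (0.85) and Cacna1a with Cacna1g (0.81). Cacna1h ran against Cacna1i (r -0.75), Cacna1a (-0.74) and Cacna1c (-0.71). The summed level of the 8 genes was 251 to 301 CPM per kb in WT DMSO and 207 to 297 CPM per kb in Het Hit 2, and in Het DMSO it went from 130.2 (411) to 441 (409).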
